A study of Mus musculus with 15 samples.

Results

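The genes described here are 37 genes of DNA repair: 25 of homologous recombination and the Fanconi pathway, 4 damage checkpoint kinases, 7 of end joining and mismatch repair, and the strand break sensor Parp1. Each was taken by its symbol in the platform's annotation, with the probe set of the highest mean where a gene had several. Of the 37, 35 were measured among 18193 genes on the arrays: 23 recombination and Fanconi genes, 4 kinases, 7 end joining and mismatch repair genes and Parp1. Xrcc2 and Rbbp8 were not analysed here, because no probe set was paired with either gene alone.

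RNA of mammospheres, the floating colonies that mammary cells make in non-adherent and non-differentiating culture, was hybridised to 15 Affymetrix mouse arrays. The cells came from primary mammary gland tumours of FVB/N mice with the genotype WAPCre-DNbcatn;HGF, and all groups carried these alleles, so no sphere without them was measured. As background, the Wap promoter is that of a milk protein gene of secretory mammary cells; the name of the genotype gives a Cre under that promoter and HGF, which binds MET, and the labels describe the alleles no further. Spheres grew for 7 days and were then treated for 24 h with DMSO, the vehicle, with PHA, with ICG, or with PHA+ICG, and 250 ng of RNA was labelled for each array. The series text speaks of MET and Wnt pathway inhibitors; by general knowledge PHA names a MET kinase inhibitor and ICG an inhibitor of β-catenin-dependent transcription, and the labels give neither full names nor doses. Arrays whose titles bear the code JAH form the first set (DMSO, PHA and ICG, 3 of each), and those with the code JHO the second (DMSO and PHA+ICG, 3 of each). Each treatment was compared with the DMSO arrays of its own set, so the PHA and ICG comparisons share the same 3 DMSO arrays. Whether a replicate was its own culture or animal is not given in the labels, so p-values measure spread from array to array, which may be only technical, and the number of arrays limits the precision.

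Homologous recombination repairs broken DNA from an intact sister copy. The broken ends are cut back, a protein filament forms on the exposed strand with the help of BRCA1, PALB2 and BRCA2, and the strand invades the copy; Fanconi proteins bring the same machinery to crosslinked DNA. Because a sister copy exists only after replication, many of these genes are read mainly in S and G2 phase, in part through E2F factors. End joining, by the Ku proteins, DNA-dependent protein kinase and ligase IV, works throughout the cell cycle, and mismatch repair corrects errors left by replication.

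The promoters of 28 of the 35 measured genes were matched in RefSeq (GRCm38.p6), as windows of 250 bases before to 50 after the start. The following stretches, the 250 bases before the start written 5′ to 3′ along the gene, are shown because they hold the words discussed with the results. Capitals mark E2F words (TTTCCCGC, TTTGGCGC or TTTCGCGC) and CCAAT boxes, on either strand.
Brca1, chr11:101551956-101552205, minus strand: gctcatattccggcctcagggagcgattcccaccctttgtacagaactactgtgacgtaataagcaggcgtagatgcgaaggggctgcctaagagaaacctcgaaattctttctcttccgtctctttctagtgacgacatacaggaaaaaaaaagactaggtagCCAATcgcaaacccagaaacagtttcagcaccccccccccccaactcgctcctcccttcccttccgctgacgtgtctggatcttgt
Rad51ap1, chr6:126939588-126939837, minus strand: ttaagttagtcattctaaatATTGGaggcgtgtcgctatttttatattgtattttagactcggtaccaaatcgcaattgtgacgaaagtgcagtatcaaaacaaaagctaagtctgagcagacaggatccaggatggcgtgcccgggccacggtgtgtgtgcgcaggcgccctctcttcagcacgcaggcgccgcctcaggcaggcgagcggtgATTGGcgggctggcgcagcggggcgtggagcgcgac
Chek2, chr5:110839733-110839982, plus strand: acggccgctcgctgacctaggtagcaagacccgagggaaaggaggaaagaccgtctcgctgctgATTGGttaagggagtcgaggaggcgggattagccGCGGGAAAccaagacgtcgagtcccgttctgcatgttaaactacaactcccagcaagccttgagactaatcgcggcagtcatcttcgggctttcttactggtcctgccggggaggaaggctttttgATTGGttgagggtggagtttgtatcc
Xrcc6, chr15:82016119-82016368, plus strand: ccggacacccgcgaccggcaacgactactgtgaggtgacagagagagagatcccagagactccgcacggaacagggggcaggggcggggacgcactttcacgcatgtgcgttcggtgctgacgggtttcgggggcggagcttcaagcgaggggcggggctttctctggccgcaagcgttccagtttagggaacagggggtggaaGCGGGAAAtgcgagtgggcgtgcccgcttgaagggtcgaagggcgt
Brca2, chr5:150522371-150522620, plus strand: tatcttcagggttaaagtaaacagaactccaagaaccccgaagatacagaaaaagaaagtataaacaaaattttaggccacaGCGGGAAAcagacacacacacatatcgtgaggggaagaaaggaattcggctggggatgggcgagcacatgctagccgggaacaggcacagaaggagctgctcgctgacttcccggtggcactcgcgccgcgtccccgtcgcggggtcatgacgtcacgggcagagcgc
Fancg, chr4:43010302-43010551, minus strand: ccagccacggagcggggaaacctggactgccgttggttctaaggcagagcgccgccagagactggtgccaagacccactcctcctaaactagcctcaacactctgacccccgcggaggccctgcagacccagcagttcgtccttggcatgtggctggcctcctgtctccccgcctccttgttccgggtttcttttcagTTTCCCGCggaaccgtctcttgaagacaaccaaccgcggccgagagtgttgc
The first 4 genes were lower with ICG and the last pair were not, as described with the results. A gene with several starts has several windows and is counted as holding a word where any of them does. An E2F word lay in the windows of 7 of the 28 genes (25%), against 2.12% of 27025 genes with a window. A CCAAT box lay in 17 of 28 (60.7%), against 41.1% of all genes, while the cell cycle homology words TTTGAA and TTCGAA lay in 2 (7.14%), against 21.7%. The ATF4 element TGATGNAA lay in 1 window, that of Fancl (3.57%, against 4.51%). Both strands were searched, and a match is a description of the letters. No E2F word overlapped a CCAAT box in these windows.

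Before the results, some arrays and groups stood apart. Values are log2 levels of a probe set, which can be compared between arrays and not between genes, and levels of a group are given in the order of replicates 1 to 3. The mean level of 10 mammary epithelial markers lay between 8.30 and 8.60 on every array of the first set and between 8.57 and 8.76 on DMSO arrays of the second, but at 8.77, 7.44 and 7.46 with PHA+ICG. The 9 leukocyte markers had means of 9.26, 7.34 and 7.24 on the second DMSO arrays and of 8.11, 6.54 and 6.42 with PHA+ICG, against 8.81 to 10.2 in the first set. The 10 fibroblast markers averaged 10.5 to 11.1 with DMSO and 9.16 to 9.81 with ICG in the first set, and 11.9 to 12.2 and 11.3 to 11.6 in the second; 6 endothelial markers stayed between 4.67 and 5.33 on all arrays, and 6 mast cell and basophil markers between 6.54 and 8.12. With ICG 9 of 10 fibroblast markers, 6 of 9 leukocyte markers, 4 of 10 epithelial markers (1 was higher), 3 of 6 mast cell and basophil markers and 0 of 6 endothelial markers were lower (0 at an unadjusted p under 0.05, limma); with PHA the numbers lower were 6, 1, 4 (1 was higher), 5 and 1, and with PHA+ICG 1, 0, 0, 1 and 0. Over all genes 15% were lower and 11.9% higher with ICG, 7.07% and 3.14% with PHA, and 1.54% and 0.478% with PHA+ICG. Median changes of the fibroblast, leukocyte, epithelial, mast cell and basophil, and endothelial markers were −1.39, −0.73, −0.20, −0.41 and −0.05 with ICG. With PHA they were −0.65, −0.34, −0.03, −1.54 and −0.12, and with PHA+ICG −0.54, −0.88, −0.70, −0.56 and −0.07. A marker that was not called is not shown to be unchanged. The part of these cell types in the repair genes' values was not tested. The spread between arrays was 2.22 times as large in the second set as in the first, and over the 35 genes the median SD within a group was 0.28 with PHA+ICG against 0.08 to 0.10 in the first set. The 3′ minus 5′ signal of Actb, a measure of RNA integrity, averaged 0.45 with DMSO, 0.54 with PHA and 0.63 with ICG in the first set, and 0.59 in both groups of the second. That of Gapdh averaged 0.12, 0.10 and 0.19 in the first set, and 0.18 ± 0.08 (SD, n = 3) with DMSO and 0.40 ± 0.31 with PHA+ICG in the second, where it ran from 0.08 to 0.69; the part of RNA quality in the repair genes' values was not tested.

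With ICG, 15 of the 35 repair genes were lower and 1 was higher than with DMSO at an adjusted p under 0.05 (limma, Benjamini-Hochberg over 18193 genes; 3 arrays a group throughout), while 15% of all genes were lower and 11.9% higher. The 15 held 9 of 23 recombination and Fanconi genes, led by Exo1 and Brca1, 2 of 4 kinases (Chek1 and Chek2), 3 of 7 end joining and mismatch repair genes (Msh6, Lig4 and Xrcc6) and Parp1. The kinase Atr was the gene that rose. The median log2 change was −0.22 over the 35 genes, −0.25 over the recombination and Fanconi genes and −0.17 over the end joining and mismatch repair genes, against 0.03 over all genes. All 3 ICG arrays lay below all 3 DMSO arrays for 20 of the 35, against 20.4% of all genes, and above them for 4, against 20.2%. With the spread pooled over all 15 arrays of both sets, 4 of the 35 were called with ICG (Brca1, Chek1, Exo1 and Parp1), all lower; the fit within the first set was chosen with the larger spread of the second set already known. In these bulk samples, fewer cells of a type and less RNA per cell cannot be told apart.

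**Figure D1:**
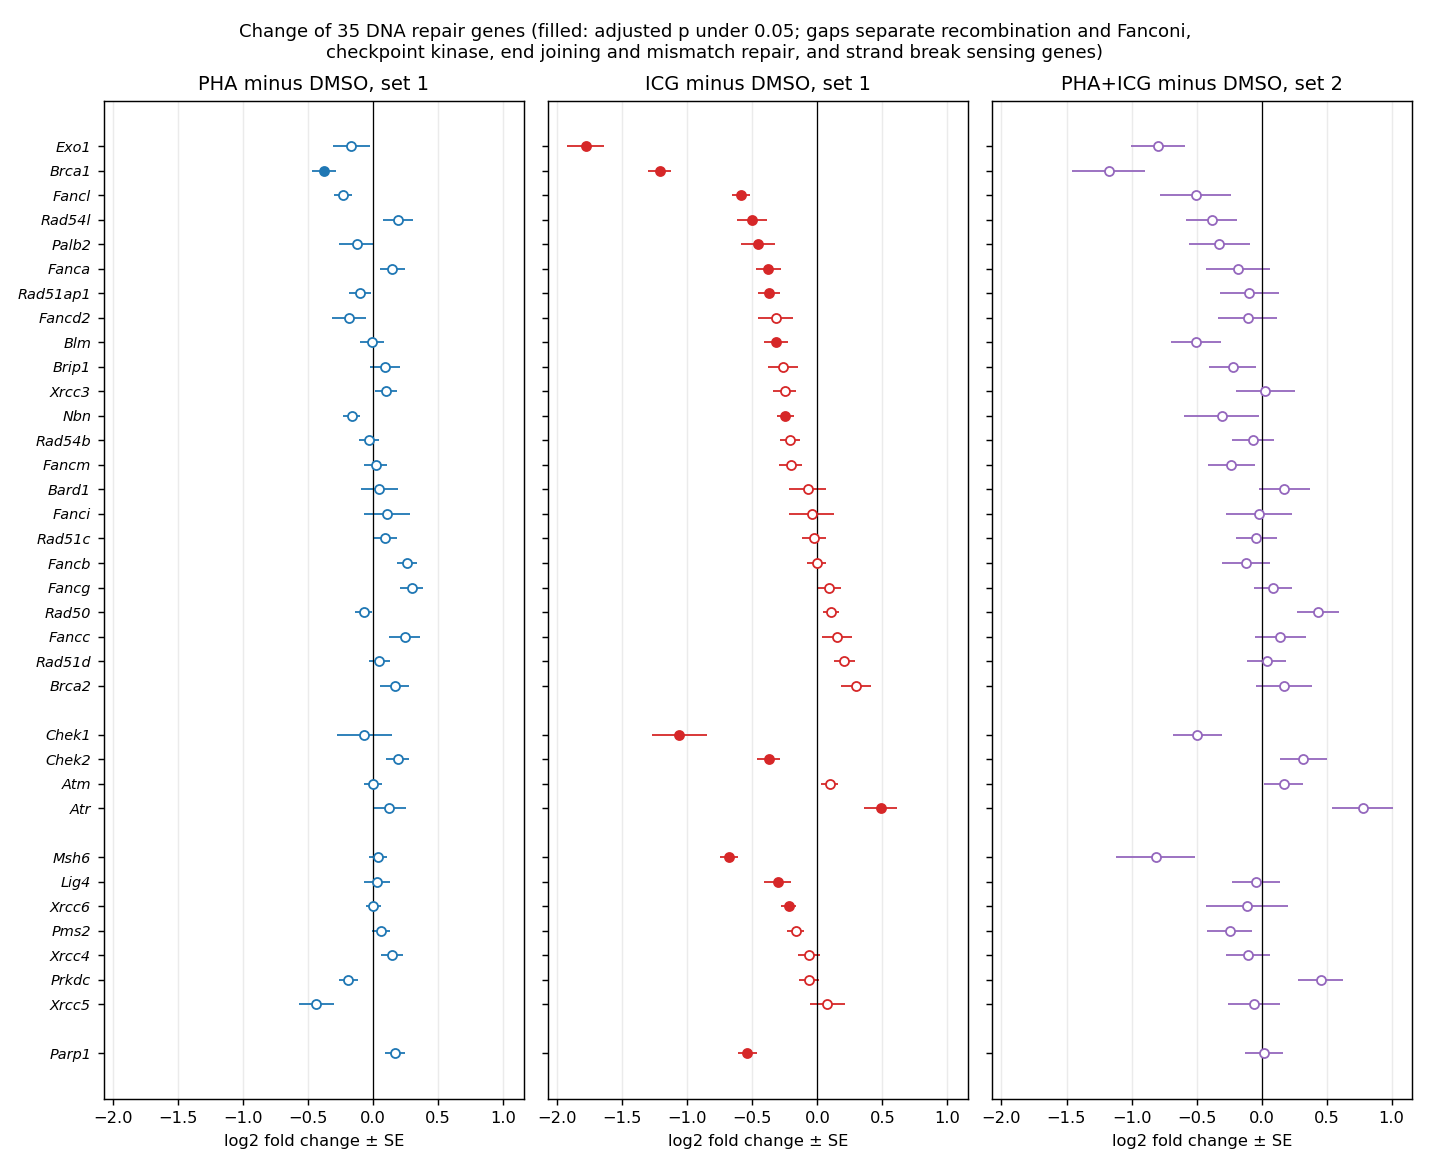
Log2 change ± SE (x axis) of each of the 35 measured repair genes (rows, grouped by role and ordered by the ICG change) with PHA, ICG and PHA+ICG against DMSO of the same set, 3 arrays a group; filled points passed an adjusted p under 0.05. The ICG panel holds 16 filled points, 15 of them left of 0, the PHA panel 1 and the PHA+ICG panel 0, and the bars are widest in the PHA+ICG panel.

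Among the genes that resect the broken end, Exo1, a 5′ to 3′ exonuclease that also serves mismatch repair, read 5.42, 5.77 and 5.84 with DMSO and 4.01, 4.06 and 3.60 with ICG. Every ICG array lay more than a log2 unit below every DMSO array, a log2 change of −1.78 ± 0.14 (3.44-fold, adjusted p = 2.59e-05). The ICG values lay below the lower quartile of all probe sets on those arrays (4.27 to 4.30) and were not shown to be above background, so the size of the fold is uncertain. Nbn, a subunit of the break-binding complex with RAD50, read 8.38, 8.49 and 8.44 with DMSO and 8.20, 8.14 and 8.23 with ICG, a change of −0.25 ± 0.06 (adjusted p = 0.018). Its partner Rad50 was not called (0.11 ± 0.06). Blm, a helicase of resection and of joint dissolution, read 7.11, 7.41 and 7.29 and 6.91, 6.98 and 6.95, again without overlap, and changed by −0.32 ± 0.09 (adjusted p = 0.0287).

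Brca1, which promotes resection and is a tumour suppressor of the breast, read 6.42, 6.57 and 6.60 with DMSO and 5.25, 5.22 and 5.48 with ICG. The groups were far apart, with a change of −1.21 ± 0.09 (2.32-fold, adjusted p = 1.84e-05). Palb2, the bridge from BRCA1 to BRCA2, read 6.44, 6.87 and 6.41 with DMSO and 5.99, 6.18 and 6.18 with ICG, a change of −0.46 ± 0.13 (adjusted p = 0.0273). Brca2 and Bard1 were not called. Brca2, a tumour suppressor that acts after resection, read 6.49, 6.33 and 6.81 and 6.93, 6.73 and 6.86, so that its groups overlapped (0.30 ± 0.11, adjusted p = 0.0806). Bard1, the partner of BRCA1 in its ubiquitin ligase, overlapped as well (−0.07 ± 0.14, limma, adjusted p = 0.744). Its only probe set had a mean of 3.79 and lay below the lower quartile of every array (4.20 or more). It was not shown to be above background, so a change could have been missed. Brca2 was called higher without DMSO replicate 3, and when only genes with a mean level of at least 6 were tested. The estimates of Brca1 and Brca2 had opposite signs, and a difference between the genes was not tested.

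Of the genes that act in strand invasion, the motor protein gene Rad54l read 5.48, 5.96 and 5.92 with DMSO and 5.25, 5.25 and 5.36 with ICG, a change of −0.50 ± 0.12 (adjusted p = 0.0101). Rad51ap1, whose product stimulates the pairing of strands, read 5.49, 5.66 and 5.70 and 5.35, 5.26 and 5.12 (−0.37 ± 0.09, adjusted p = 0.00936). Both were lower on every ICG array. Xrcc3, Rad51c and Rad51d, which act at the same step, did not pass the test: the estimate for Xrcc3 was −0.25 ± 0.09 with an adjusted p of 0.0509, that for Rad51c −0.03 ± 0.09 and that for Rad51d 0.21 ± 0.08. Rad54b, a relative of Rad54l, had a value of −0.21 ± 0.08 (limma, adjusted p = 0.0636). Its only probe set had a mean of 3.28, below the lower quartile of every array (4.20 or more), and was not shown to be above background.

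In the Fanconi pathway, Fancl, the ubiquitin ligase of the core complex, read 7.76, 7.72 and 7.70 with DMSO and 7.03, 7.21 and 7.16 with ICG. The 3 DMSO arrays lay within 0.1 log2 units of each other and the ICG arrays well below them (−0.59 ± 0.07, 1.5-fold, adjusted p = 0.000208). Fanca, another core subunit, read 6.41, 6.49 and 6.23 and 5.98, 6.01 and 6.00 (−0.38 ± 0.10, adjusted p = 0.0156). The remaining 7 Fanconi genes were not called, and their estimates ran from −0.32 for Fancd2, the target of the ligase (adjusted p = 0.105), and −0.27 for the helicase gene Brip1 to 0.15 for Fancc. Between them lay Fancm (−0.20), Fanci (−0.04), Fancb (−0.01) and Fancg (0.09).

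The kinases of the damage checkpoint moved in both directions. Chek1, which holds the cell cycle when replication stalls, read 6.08, 6.54 and 6.89 with DMSO and 5.79, 5.18 and 5.36 with ICG, a change of −1.06 ± 0.21 (2.09-fold, adjusted p = 0.00428). Chek2, its counterpart downstream of ATM, read 7.16, 7.47 and 7.32 and 6.90, 6.90 and 7.03 (−0.38 ± 0.09, adjusted p = 0.0102). Atr, the kinase that activates CHEK1, read 6.70, 7.13 and 7.13 with DMSO and 7.42, 7.52 and 7.48 with ICG. It was higher on every ICG array, by 0.49 ± 0.12 (1.40-fold, adjusted p = 0.0166). Atm, the kinase of double-strand breaks, had an estimate of 0.09 ± 0.07 (adjusted p = 0.348). On DMSO replicate 1 of the first set Chek1, Rad54l, Exo1 and Atr had their lowest DMSO values, and the mean over 22 cycling markers was 7.69 there against 8.17 and 8.36 on the others; its part in these results was not tested, and Chek1, Rad54l and Exo1 were also called without that array, as was Atr.

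**Figure D2:**
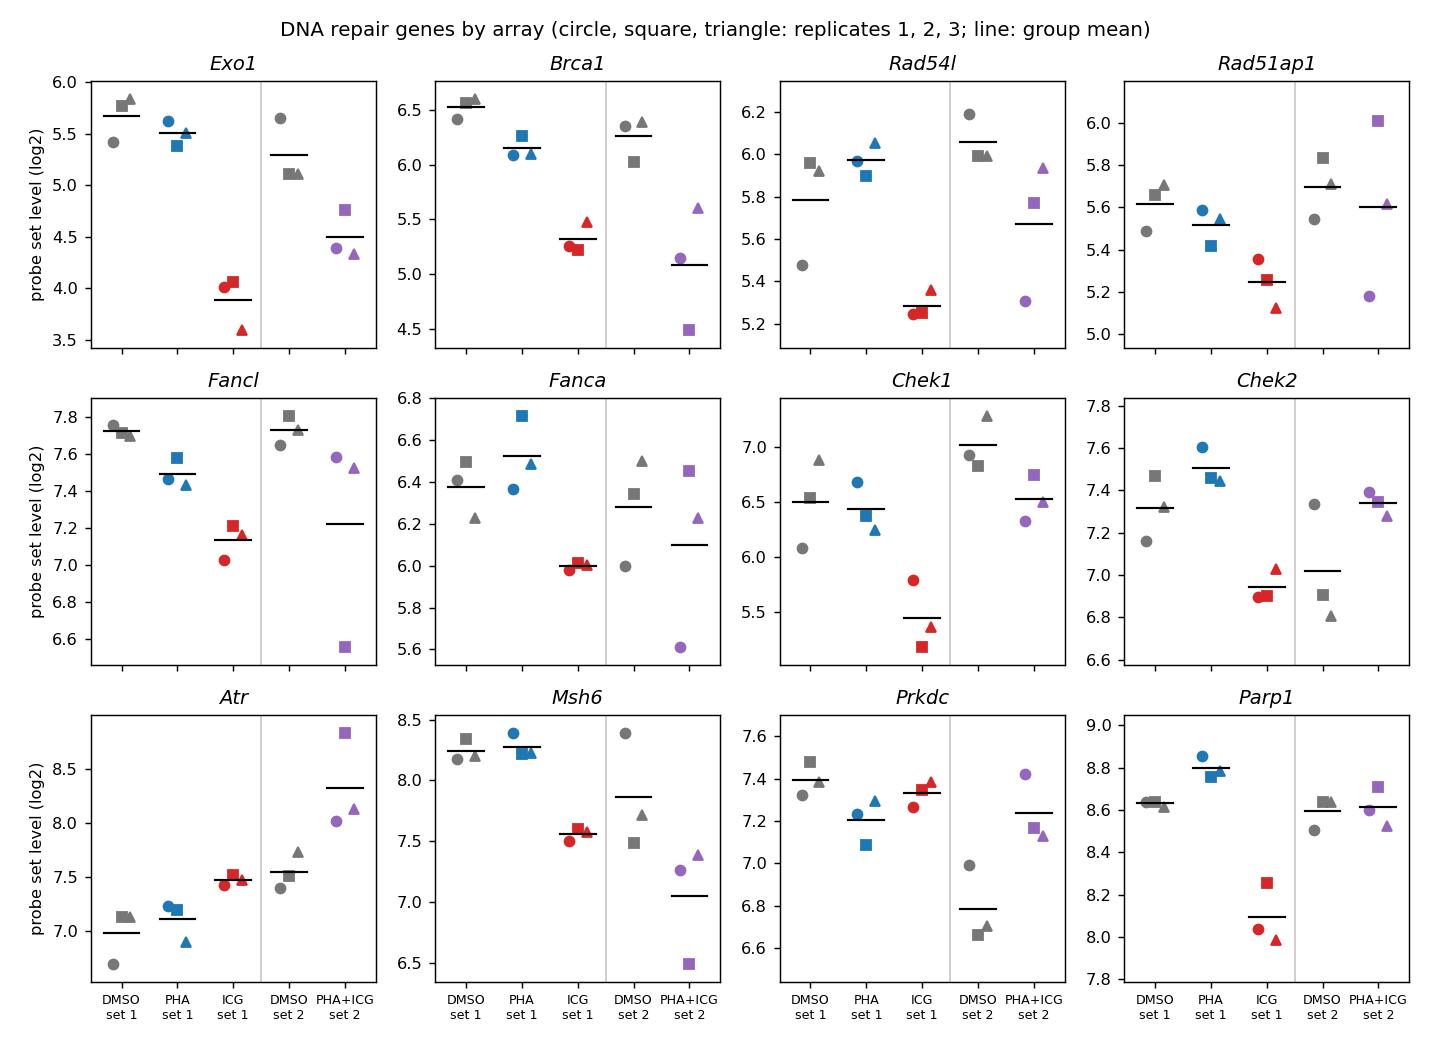
Log2 level (y axis, a separate scale for each gene) of 12 repair genes on each of the 15 arrays, by group (x axis); shapes mark the replicate and lines the group mean, and a grey rule separates the 2 sets. Exo1 sits at 3.60 to 4.06 on the ICG arrays against 5.42 to 5.84 with DMSO, and PHA+ICG replicate 2 has the lowest Brca1, Fancl and Msh6 levels.

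Of mismatch repair, Msh6, which recognises base mismatches, read 8.18, 8.34 and 8.20 with DMSO and 7.50, 7.60 and 7.58 with ICG. The groups were separated by more than 0.5 log2 units (−0.68 ± 0.07, 1.6-fold, adjusted p = 0.000121). Pms2, an endonuclease subunit, read 7.19, 7.38 and 7.24 and 7.11, 7.05 and 7.14; its groups did not overlap, but it was not called (−0.17 ± 0.07, adjusted p = 0.0932).

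Of end joining, Lig4, the ligase that seals the break, read 7.61, 8.00 and 7.76 with DMSO and 7.59, 7.41 and 7.45 with ICG (−0.31 ± 0.10, adjusted p = 0.0453). Xrcc6, the smaller Ku subunit, read 7.31, 7.24 and 7.24 and 7.10, 7.00 and 7.01, a small change on tight arrays (−0.22 ± 0.06, adjusted p = 0.0194). Xrcc5, Xrcc4 and Prkdc were not called and their groups overlapped. Xrcc5, the larger Ku subunit, read 7.41, 7.35 and 7.04 and 7.45, 7.31 and 7.27 (0.08 ± 0.13). Xrcc4, the cofactor of ligase IV, read 7.79, 7.97 and 7.85 and 7.63, 7.88 and 7.91 (−0.06 ± 0.09), and Prkdc, the DNA-dependent protein kinase, 7.32, 7.48 and 7.38 and 7.27, 7.34 and 7.38 (−0.06 ± 0.07). Parp1, which senses strand breaks and marks them with poly(ADP-ribose), read 8.64, 8.64 and 8.62 with DMSO and 8.04, 8.26 and 7.98 with ICG. It fell on every array (−0.54 ± 0.08, 1.45-fold, adjusted p = 0.000615).

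Set side by side, 9 of 23 recombination and Fanconi genes and 3 of 7 end joining and mismatch repair genes were lower with ICG. Of all genes 15% were lower. Both roles had medians below 0, and the difference between these roles was not tested. After quantile normalization Rad54b, at the low level given above, and Xrcc3 were also called lower, while Lig4 and Xrcc6 lost their calls. Rad51d was then called higher, as Atr was. The mean level over the recombination and Fanconi genes was 6.00, 6.05 and 6.08 on the DMSO arrays, from lowest to highest, and 5.75, 5.77 and 5.78 on the ICG arrays. The end joining and mismatch repair genes averaged 7.53, 7.54 and 7.68 with DMSO and 7.37, 7.38 and 7.39 with ICG, so that in both roles the groups were apart.

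Which array was left out mattered for the smaller changes. The calls of Exo1, Brca1, Rad54l, Rad51ap1, Fancl, Chek1, Chek2, Msh6 and Parp1 were kept in all 6 leave-outs. The call of Fanca was lost without DMSO replicate 2 (lowest and highest log2 change over the leave-outs −0.45 and −0.32) and that of Atr without ICG replicate 2 (0.34 to 0.56). Palb2 lost it without DMSO replicate 2 or any 1 ICG array (−0.54 to −0.31), and Blm without any array but DMSO replicate 1 (−0.40 to −0.25). Nbn lost it without DMSO replicate 2 or 3 or ICG replicate 2 (−0.28 to −0.22), Xrcc6 without DMSO replicate 1 or ICG replicate 2 or 3 (−0.25 to −0.20), and Lig4 without DMSO replicate 2 or 3 or ICG replicate 2 or 3 (−0.40 to −0.20). Without ICG replicate 2, 10 genes were called in place of 16; without DMSO replicate 2, 5 recombination and Fanconi genes in place of 9; and without ICG replicate 2 or 3, 1 end joining and mismatch repair gene in place of 3. With the mean of all probe sets of a gene, 12 genes were called, all lower: Atr (0.43, adjusted p = 0.0601), Fanca (−0.17), Rad54l (−0.20) and Xrcc6 (−0.18) lost their calls, so that no gene was then called higher.

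Several genes have more than 1 probe set, which read different parts or forms of a transcript, and the 35 genes have 78 in all. Of the 9 genes lower with ICG that have more than 1, 4 had a second probe set that was also lower (adjusted over all probe sets): Brca1, Chek1, Parp1 and Rad51ap1. The probe set that represents Rad51ap1, chosen for its level, changed by −0.37, while its other 3 changed by −2.11, −1.83 and −0.83, all with adjusted p of 0.00835 or less. The second Chek1 probe set changed by −1.19 and that of Brca1 by −0.43, and 3 of the 4 Parp1 probe sets were lower, with changes of −0.57 to −0.39. For Exo1 the other pair, at means of 4.59 and 2.86, had values of −0.14 and 0.05, and the call rests on 1 probe set. Fancb, not called by its main probe set (−0.01), was lower by its other one (−0.56, adjusted p = 0.0493).

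**Figure D3:**
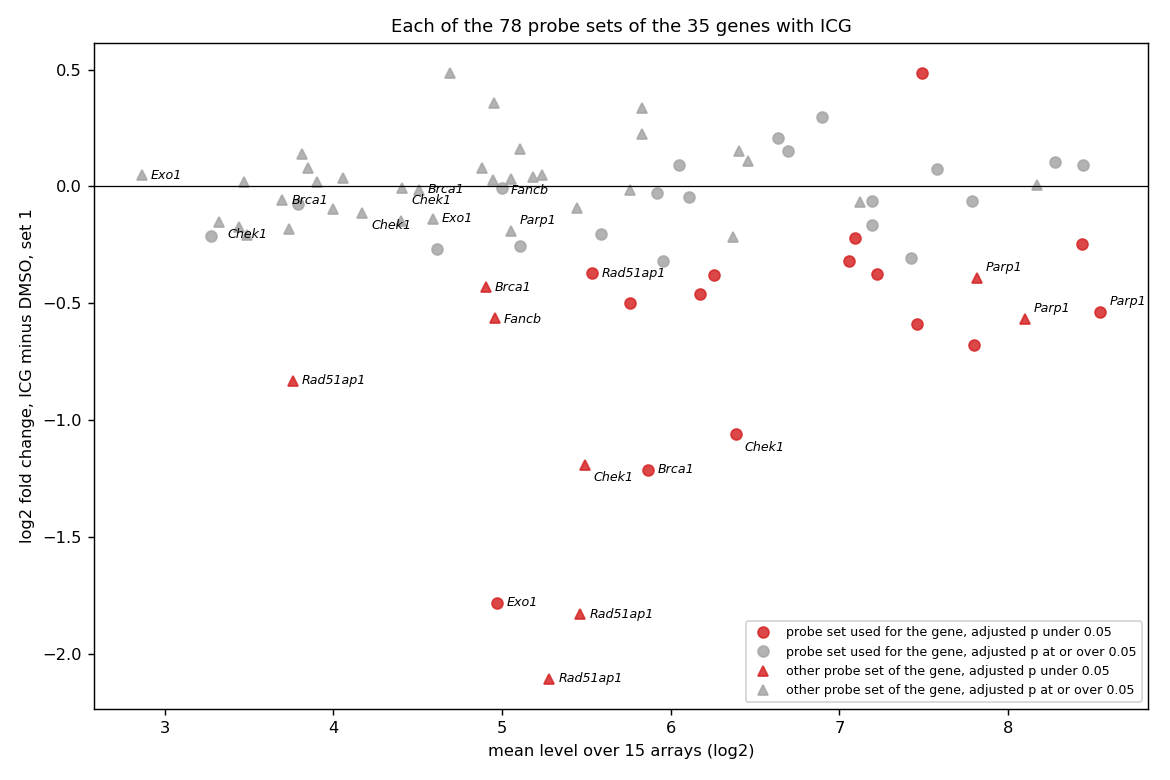
Log2 change with ICG (y axis) against the mean level over 15 arrays (x axis) for each of the 78 probe sets of the 35 genes; red symbols passed an adjusted p under 0.05 over all probe sets, circles are the probe sets used for the gene and triangles the others. The other probe sets of Rad51ap1 lie lowest, at −2.11 and −1.83, next to Exo1 at −1.78.

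With PHA, Brca1 was the 1 gene of 35 that was lower and 0 were higher, with 7 of the 35 at an unadjusted p under 0.05 (limma), while 7.07% of all genes were lower and 3.14% higher (1286 and 572 genes; after quantile normalization 1101 and 857). Brca1 read 6.09, 6.26 and 6.09, below all DMSO arrays given above (−0.38 ± 0.09, 1.30-fold, adjusted p = 0.0253). That call was lost without DMSO replicate 2 or 3 or PHA replicate 1 or 3 (log2 change −0.44 to −0.34 over the leave-outs). It was also lost with the spread pooled over 15 arrays and with the mean of all probe sets of the gene. The other Brca1 probe sets changed by −0.09, 0.05 and −0.03 with PHA. The median change was 0.04 over the 35 genes and 0.02 over all genes.

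Other genes came near the threshold with PHA. The Ku gene Xrcc5 had the largest estimate, −0.44 ± 0.13 (adjusted p = 0.0691), from levels of 6.79, 6.59 and 7.11 that overlapped the DMSO arrays. Fancl lay below DMSO on all PHA arrays (−0.23 ± 0.07, adjusted p = 0.0632), and Fancb and Fancg above it (0.26 ± 0.08 and 0.29 ± 0.09, adjusted p = 0.0567 and 0.0628). The other probe sets of Fancl, Fancb and Fancg changed by −0.002, −0.05 and −0.05. Exo1 (−0.17), Chek1 (−0.07), Msh6 (0.04) and Parp1 (0.17), each lower with ICG, were not called with PHA.

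Compared directly within the first set, ICG arrays were lower than PHA arrays for 17 of the 35 genes and higher for 1, while 13.7% of all genes were lower and 13.4% higher. This tests the difference between the agents at the single condition given for each, with no dose stated. The difference was largest for Exo1 (−1.61 ± 0.14, adjusted p = 3.64e-05; PHA arrays 5.62, 5.38 and 5.51), Chek1 (−0.99 ± 0.21, adjusted p = 0.00569) and Brca1 (−0.83 ± 0.09, adjusted p = 0.000108). Msh6 followed with −0.72 ± 0.07 and Parp1 with −0.70 ± 0.08, then Rad54l (−0.69), Chek2 (−0.56), Fanca (−0.53) and Fancl (−0.36). Xrcc3, Brip1, Fancb and Pms2, not called for ICG against DMSO, were lower than with PHA, with differences of −0.35 ± 0.09, −0.36 ± 0.11, −0.27 ± 0.08 and −0.23 ± 0.07.

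Xrcc3, of strand invasion, read 5.31, 5.17 and 4.99 with PHA and 4.77, 4.81 and 4.84 with ICG. Brip1, a helicase that binds BRCA1, read 4.58, 5.07 and 4.70 and 4.52, 4.38 and 4.37, and Fancb, a core subunit, 5.12, 5.24 and 5.03 and 4.77, 4.93 and 4.87. None of these groups overlapped between the agents. On the first DMSO arrays Xrcc3 read 5.13, 4.98 and 5.07, Brip1 4.79, 4.63 and 4.66 and Fancb 4.94, 4.78 and 4.88. Xrcc5 was the gene that was higher with ICG than with PHA (0.51 ± 0.13, adjusted p = 0.0167). The other differences, of Rad51ap1 (−0.27), Blm (−0.31), Lig4 (−0.34) and Xrcc6 (−0.22), had adjusted p between 0.0179 and 0.0386. Of the genes called lower with ICG against DMSO, Palb2 and Nbn did not differ between the agents at this threshold (−0.33 ± 0.13 and −0.08 ± 0.06). The calls of Exo1, Chek1, Brca1, Msh6, Parp1, Rad54l, Chek2, Fanca, Fancl and Xrcc3 were kept in all 6 leave-outs. Rad51ap1 and Xrcc6 lost theirs without PHA replicate 1 or 3 or ICG replicate 2 or 3, Lig4 without PHA replicate 1 or 2 or ICG replicate 2 or 3, Fancb without PHA replicate 1 or 2 or ICG replicate 1 or 3, and Pms2 without PHA or ICG replicate 1 or 2. Blm lost it without any array but PHA replicate 3, Brip1 without any but PHA replicate 1, and Xrcc5 without PHA replicate 1 or 2 or ICG replicate 1. Without PHA replicate 1 or 2 or ICG replicate 2 or 3, 12 genes were called in place of 18, and with the spread pooled over 15 arrays 6.

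With PHA+ICG, 0 of the 35 genes were called in either direction by limma within the second set, where 1.54% of all genes were lower and 0.478% higher (281 and 87 genes; after quantile normalization 243 and 132), and 8 of the 35 had an unadjusted p under 0.05. The median SE over the 35 genes was 0.20, against 0.09 in the first set, and a difference that was not called here is not shown to be absent. All PHA+ICG arrays lay below all DMSO arrays for 7 of the 35, against 11% of all genes, and above them for 4, against 7.33%. Same-numbered arrays of the second set were taken as pairs, and with the replicate number as a block 4 of the 35 were called: Brca1, Msh6 and Exo1 lower and Atr higher.

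Brca1 read 6.36, 6.03 and 6.39 with DMSO and 5.14, 4.49 and 5.61 with PHA+ICG, a change of −1.18 ± 0.28 (adjusted p = 0.0832, with the replicate block 0.0032). Exo1 read 5.65, 5.11 and 5.11 and 4.39, 4.76 and 4.33 (−0.80 ± 0.21, adjusted p = 0.117, with the block 0.0325). Both genes were lower in every pair. Msh6 read 8.39, 7.49 and 7.72 and 7.27, 6.50 and 7.39 (−0.81 ± 0.30, adjusted p = 0.277, with the block 0.0257). Atr read 7.41, 7.51 and 7.73 and 8.02, 8.83 and 8.13, higher on every treated array (0.78 ± 0.24, adjusted p = 0.168, with the block 0.0386). The pairing that these block values rest on is uncertain, since arrays 2 and 3 also correlated across numbers.

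Replicate 2 of PHA+ICG held the extreme value for each of these genes but Exo1, and also for Fancl (7.59, 6.56 and 7.53) and Nbn (8.89, 7.82 and 8.76). On that array and on replicate 3 the epithelial marker mean was also low, as given above; its part in these values was not tested. Without PHA+ICG replicate 2, as without each other array of the set, 0 of the 35 were called. Blm (6.79, 7.31 and 7.37 with DMSO, 6.58, 6.60 and 6.78 with PHA+ICG) and Chek1 (6.93, 6.83 and 7.29 and 6.33, 6.75 and 6.50) were lower on all treated arrays (−0.51 ± 0.19 and −0.49 ± 0.19), with adjusted p of 0.291 and 0.292. Rad50 and Prkdc were higher on all of them (0.43 ± 0.16 and 0.45 ± 0.17, adjusted p = 0.282 and 0.276).

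The remaining end joining and mismatch repair genes stayed within the spread of the second set. Lig4 read 6.95, 6.99 and 7.15 with DMSO and 6.85, 6.80 and 7.30 with PHA+ICG, Xrcc6 7.50, 6.63 and 6.87 and 7.09, 6.27 and 7.30, and Pms2 7.21, 7.44 and 7.09 and 7.10, 7.11 and 6.79. Their groups overlapped, with estimates of −0.04 ± 0.18, −0.11 ± 0.32 and −0.24 ± 0.17. Xrcc4 (−0.10) and Xrcc5 (−0.06) overlapped too. Parp1 read 8.50, 8.64 and 8.64 and 8.60, 8.71 and 8.53 and had an estimate of 0.02 ± 0.15.

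The difference between the PHA+ICG effect and the ICG effect, tested over all 15 arrays, was called for 0 of the 35 genes in either direction (5 at an unadjusted p under 0.05, limma), with 0.588% of all genes lower and 0.291% higher (107 and 53 genes; after quantile normalization 95 and 78). The largest differences were those of Exo1 (0.99 ± 0.26, adjusted p = 0.106), Chek2 (0.70 ± 0.18, adjusted p = 0.124), Chek1 (0.57 ± 0.30, adjusted p = 0.608) and Parp1 (0.56 ± 0.14, adjusted p = 0.0911). For each of these the estimate with ICG alone lay below that with PHA+ICG, and Exo1 and Chek2 were called without replicate 1 of the second DMSO group, which gave 2 calls. For Brca1 the effects were nearly equal in size (−1.21 and −1.18; difference 0.04 ± 0.29). The treatments lie in different sets, so set and agent cannot be told apart in these differences.

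The difference between the PHA+ICG effect and the PHA effect was called for 1 of the 35 genes. Prkdc was higher by 0.64 ± 0.16 (limma, adjusted p = 0.0355), while 1.93% of all genes were higher and 2.79% lower. That SE rests on 1 spread for both sets, although the second set's was 2.22 times as large, so it may be too small. Prkdc read 6.99, 6.66 and 6.70 with DMSO and 7.42, 7.17 and 7.13 with PHA+ICG, and 7.32, 7.48 and 7.38 with DMSO and 7.23, 7.09 and 7.30 with PHA in the first set. Neither effect was called on its own within its set (0.45 ± 0.17 and −0.19 ± 0.07); with the spread pooled over 15 arrays, as in the test of the difference, the PHA+ICG effect was called (adjusted p = 0.0168), as it was with array weights. The call was lost in 8 of 12 leave-outs (0.55 to 0.75): without any 1 of the first set's DMSO or PHA arrays, and without replicate 2 or 3 of the second DMSO group. With the replicate block Brca1 and Msh6 were also called, lower with PHA+ICG (differences of −0.80 and −0.85).

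Other repair genes, from lists written with earlier results of these data known, were read the same way, and their counts with ICG stand beside 15% of all genes lower and 11.9% higher. With ICG, 9 of 39 further recombination and Fanconi genes were lower (23.1%) and 2 higher (5.13%; median −0.07); the chromatin remodeller Hells (−1.30 ± 0.14), Ube2t, the ubiquitin carrier of the Fanconi ligase (−1.02 ± 0.11), and Rpa2, a subunit of the single-strand binding protein (−0.79 ± 0.10), changed most, and Recql4 (0.34) and Faap20 (0.31) rose. Of 23 further genes of break signalling and the checkpoint 8 were lower and 3 higher (median −0.06). The lower ones were led by Clspn (−1.46 ± 0.15) and Topbp1 (−1.14 ± 0.11), which help ATR to activate CHEK1, and by Tipin (−0.98 ± 0.08). Abraxas1 (0.62), Rad9a (0.59) and Babam2 (0.44) were higher.

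Of 16 base excision repair genes 6 were lower and 1 higher (median −0.21), with the DNA ligase gene Lig1 at −1.33 ± 0.14 and the uracil glycosylase gene Ung at −0.90 ± 0.08. Of 15 nucleotide excision repair genes 3 were lower and 2 higher (median 0.04), and Xpa, which verifies the damage, read 7.60, 7.72 and 7.65 with DMSO and 6.61, 6.48 and 6.20 with ICG (−1.23 ± 0.10, adjusted p = 2.38e-05). Of 10 further end joining genes 2 were lower and 1 higher (median −0.07), of 9 translesion synthesis and direct reversal genes 1 and 2 (median −0.05), and of 5 further mismatch repair genes 0 were called either way (median 0.10, 1 at an unadjusted p under 0.05, limma). Of nucleotide excision repair genes 20% were lower and 13.3% higher, of further end joining genes 20% and 10%, and of the translesion list 11.1% and 22.2%; each share rests on few genes and is no result about its list.

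**Figure D4:**
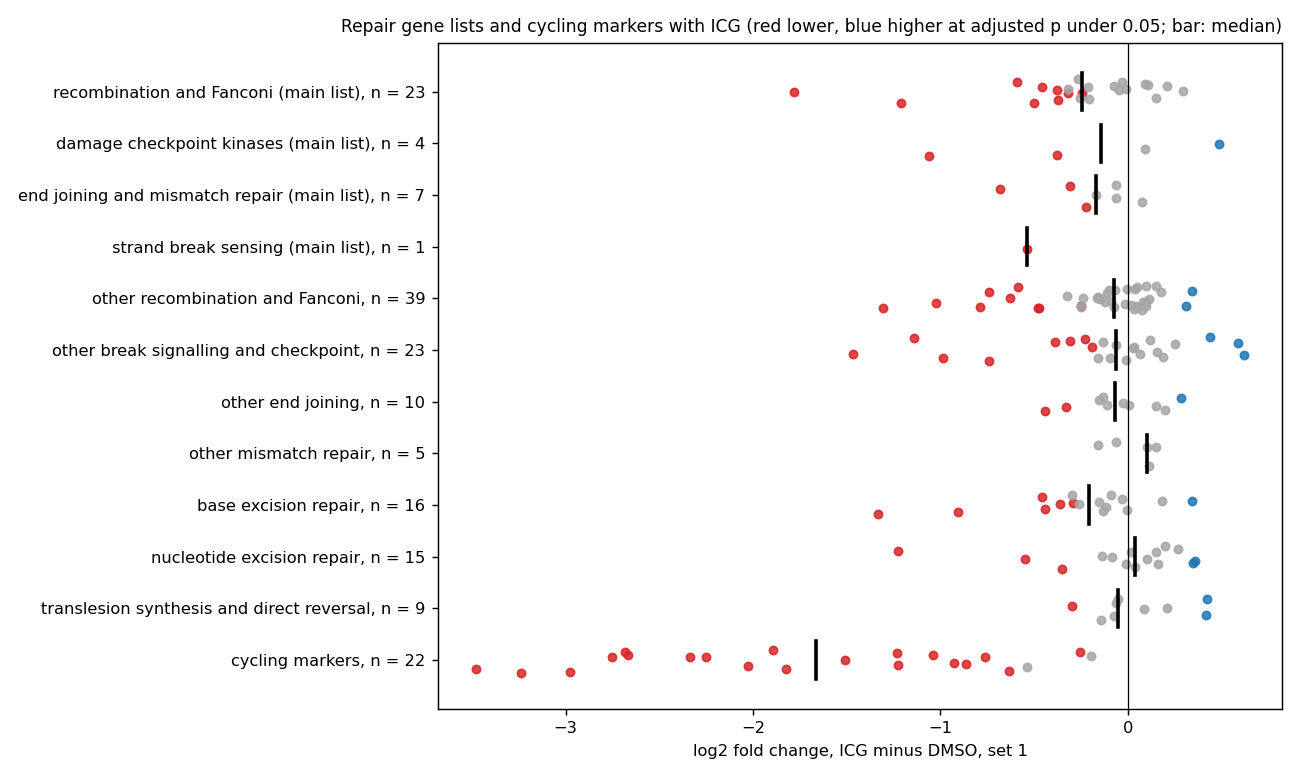
Log2 change with ICG (x axis) of each gene of the 4 roles described here (main list), of 7 other repair lists and of 22 cycling markers (rows, with the number of genes measured); red points were lower and blue points higher at an adjusted p under 0.05, and the bar is the list's median. The cycling markers have their median at −1.67 and Top2a at −3.48, the recombination and Fanconi genes of the main list their median at −0.25.

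Cycling markers were lower as well. With ICG, 20 of 22 were lower (median −1.67), and their mean level was 6.28 to 6.53 on the ICG arrays against 7.69 to 8.36 with DMSO. Top2a, the topoisomerase of chromosome segregation, read 7.93, 8.75 and 9.05 with DMSO and 5.39, 5.02 and 4.89 with ICG (−3.48 ± 0.27). Mki67, a marker of dividing cells, changed by −1.04 ± 0.33, with DMSO replicate 1 within the ICG range, and Ccne2, the cyclin of S phase entry, by −2.25 ± 0.28. With PHA 4 were lower, led by Mcm6 (−0.46) and Mcm7 (−0.37) of the replicative helicase, and with PHA+ICG 11 (median −1.24), led by Ccnb2 (−2.13) and Top2a (−2.10). The part of the share of cycling cells in the repair genes' changes was not tested.

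Of the other repair genes, Timeless (−0.43) of the checkpoint list, Polm (−0.30) of end joining, Ung (−0.37) and Ddb2 (−0.31) were lower with PHA. So were Rev1 (−0.24) and Primpol (−0.37) of translesion synthesis, while Cetn2 of nucleotide excision repair was higher (0.54). Over all genes 7.07% were lower and 3.14% higher with PHA, and 1.54% and 0.478% with PHA+ICG. None of the 39 further recombination and Fanconi genes was called with PHA (7 at an unadjusted p under 0.05) or with PHA+ICG (6), by limma, and none of the further mismatch repair genes (0 in both). Counts this small beside these shares are no result about a list. With PHA+ICG Xpa read 8.57, 8.32 and 8.64 with DMSO and 7.23, 7.30 and 7.24 treated (−1.25 ± 0.16, adjusted p = 0.00993), and Lig1 (−1.0) and Ung (−0.93 ± 0.16) were lower too. Abraxas1, a scaffold of the BRCA1-A complex, was higher (0.87 ± 0.16, adjusted p = 0.0397).

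Returning to the promoters, E2F words lay in windows of 3 of the 13 genes lower with ICG (23.1%; Chek2, Xrcc6 and Msh6) and in 4 of the other 15 (26.7%; Bard1, Brca2, Fancg and Rad51c). CCAAT boxes lay in 9 of 13 (69.2%) and 8 of 15 (53.3%), and cell cycle homology words in 0 of 13 and 2 of 15. Of 18 cycling markers with a window, E2F words lay in 5 (27.8%), CCAAT boxes in 14 (77.8%) and cell cycle homology words in 9 (50%). Brca2 and Fancg, printed above with an E2F word each, had estimates of 0.30 and 0.09 with ICG, and Chek2 and Xrcc6, with the same word, of −0.38 and −0.22.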

How the data were processed

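The values are log2 expression levels of 45101 probe sets on 15 arrays, as deposited by the authors; the submitters' processing notes name RMA and MAS5, without versions or roles, and whether the sets were normalized together is not given in the sources used here. Control probe sets (64) were left out. The platform annotation paired 34945 probe sets with 1 symbol, 932 with several and 9160 with none; only the first were used, with the highest mean over 15 arrays where a gene had several, which gave 18193 genes. Promoter windows came from RefSeq.

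Group means were fitted with limma 3.58.1 (R 4.3.3; lmFit and eBayes) within each set, with 6 residual degrees of freedom in the first and 4 in the second, and differences of effects on all 15 arrays, with 10. The threshold for a call was 0.05 on p-values adjusted over 18193 genes (Benjamini-Hochberg) in each comparison; SEs are moderated. The members, gene lists, marker lists, motifs and the fit within sets were chosen with earlier results of these data known, and no list is independent evidence. Named were all members, array by array where called within a set or of end joining, mismatch repair or strand break sensing; and up to 3 called genes per list, comparison and direction, with Mki67 and Ccne2. Some items are not reported here. Fits were tested on simulated data. Python 3.11.15, numpy 2.4.6, pandas 2.3.3 and matplotlib 3.10.9 made the tables and figures.

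Replicate numbers come from the titles. Over all genes, deviations from the group mean of same-numbered arrays correlated at 0.614, 0.363 and 0.277 in the second set, taken as pairs although crossed numbers 2 and 3 also correlated (0.351 and 0.238), and at −0.262 to 0.117 in the first, not taken as pairs.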

Additional observations from a re-analysis of the deposited data

Results flagged for a closer look

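Prkdc, the DNA-dependent protein kinase of end joining, was singled out because its effects under PHA+ICG and under PHA differed in the test of that difference. The PHA+ICG effect exceeded the PHA effect by 0.644 on the log2 scale (SE 0.163, adjusted p = 0.0355, limma). Prkdc was the 1 of 35 repair genes called in that test, though not the one with the largest estimate. That was 0.655, in a damage checkpoint kinase that was not called. Each effect was measured against its own set's DMSO arrays, so set and agent cannot be told apart.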

How the results depend on the processing

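Of the 35 repair genes, none that the main fit called in a comparison reversed its direction there under another setting. Genes of the other lists were not checked for this. Pooling the spread over 15 arrays gave 182 genes in place of 1858 for PHA (0 of the 35 repair genes in place of 1), 1255 in place of 4896 for ICG (4 in place of 16; 2 recombination and Fanconi genes lower in place of 9 and 0 end joining and mismatch repair genes in place of 3), 2413 in place of 368 for PHA+ICG (7 in place of 0) and 1463 in place of 4939 for ICG against PHA (6 in place of 18). Array weights gave 2 repair genes for PHA, 3157 genes and 8 repair genes for PHA+ICG, 1647 in place of 160 and 5 in place of 0 for its difference from ICG, and 3449 in place of 860 and 3 in place of 1 for its difference from PHA. The replicate block gave 1202 genes for PHA, 1442 and 4 repair genes for PHA+ICG, 431 for the difference from ICG, and 1684 and 3 for that from PHA; it took the call of Lig4 with ICG. In the first set the numbers were not taken as pairs. Genes with a mean of at least 6 gave 3 repair genes for PHA, 5 recombination and Fanconi genes lower with ICG, where fewer members are tested, and 2 for the difference from PHA. With ICG this filter also called Brca2 and Rad51d higher, beside Atr, and Pms2 lower. Quantile normalization gave 1 end joining and mismatch repair gene lower with ICG, median centring 2 for the difference from PHA, the trended prior 2 for PHA, and the mean of all probe sets 0 for PHA and 12 for ICG. Every probe set on its own, an alternative chosen after seeing the data, gave 16 genes with ICG. These were not the same 16: Lig4 lost its call (adjusted p = 0.0595, limma) and Fancb gained one by its other probe set (0.0493). The causes were not tested.

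Leaving out 1 array gave 1005 to 1691 genes for PHA (0 to 1 repair genes), 3696 to 4756 for ICG (10 to 16; 5 to 10 recombination and Fanconi genes and 1 to 3 end joining and mismatch repair genes lower), 56 to 389 for PHA+ICG (0 in each), 3922 to 4399 for ICG against PHA (12 to 17), 67 to 470 for the difference from ICG (0 to 2) and 479 to 1530 for that from PHA (0 to 3). Counts of genes moved by over 1.5 times for PHA without DMSO replicate 2 (1062) or 3 (1210) or PHA replicate 1 (1087) or 2 (1005), and for PHA+ICG without DMSO replicate 2 (67) or 3 (56) or PHA+ICG replicate 2 (189) or 3 (89). The difference from ICG gave 67 to 106 genes without any 1 first-set DMSO or ICG array or second-set DMSO replicate 2 or 3, 365 without second-set DMSO replicate 1 and 470 without PHA+ICG replicate 1. The difference from PHA gave 479 to 572 without any 1 first-set DMSO or PHA array and 1530 without PHA+ICG replicate 1; of the repair genes it gave 2 without replicate 1 of either second-set group and 3 without PHA+ICG replicate 3.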
